A study of Mus musculus with 6 samples.

Results

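Carbonic anhydrases are the enzymes that interconvert carbon dioxide and bicarbonate, and the transcripts of 9 of their genes were followed through the differentiation of MEL cells. The genes Car1, Car2, Car3, Car4, Car5b, Car7, Car8, Car12 and Car13 were taken by symbol from the 24164 genes represented in the count data, and the RefSeq transcript with the highest mean count stood for each gene. All 9 had a transcript in the data, 8 had more than 3 counts in at least 1 library, and 7 passed the filter on low counts and were tested. MEL cells are a mouse erythroleukemia line, virus-transformed erythroid precursors held at an early stage, that resume erythroid differentiation in DMSO. Poly(A)-selected mRNA was sequenced from cells before induction (day 0) and after 2 and 4 days in 2% DMSO (day 2 and day 4), in 2 cultures a day, which gave 6 libraries. There was no culture kept without DMSO to days 2 and 4, so treatment and time in culture cannot be told apart.

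In red cells, carbonic anhydrase turns carbon dioxide from the tissues into bicarbonate and a proton, the bicarbonate leaves through the anion exchanger band 3, and the reaction runs backwards in the lung. Car1 and Car2 are the cytosolic enzymes for which red cells are known, Car2 being the faster enzyme. The family members differ in where they work: Car3, Car7 and Car13 are also cytosolic, Car5b is mitochondrial, Car4 and Car12 hold their catalytic domain outside the cell, and Car8 is a related protein without catalytic activity that binds an inositol trisphosphate receptor.

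The catalytic zinc is held by histidines, of which a pair lies only 1 residue apart in the protein. The coding stretch of 57 bases around this pair is shown for the 8 enzymes because it is the part of the active site they share, and capitals mark the triplets aligned with codons 94 and 96 of Car2. The stretches were read 5′ to 3′ on the coding strand from GENCODE transcripts of GRCm38, and each lies within 1 exon.
Car1: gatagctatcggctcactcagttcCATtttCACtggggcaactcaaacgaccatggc
Car2: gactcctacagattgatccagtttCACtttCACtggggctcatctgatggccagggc
Car3: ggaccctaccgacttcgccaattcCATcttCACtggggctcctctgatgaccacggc
Car13: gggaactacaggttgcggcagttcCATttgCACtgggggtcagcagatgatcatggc
Car7: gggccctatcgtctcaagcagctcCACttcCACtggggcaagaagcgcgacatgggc
Car5b: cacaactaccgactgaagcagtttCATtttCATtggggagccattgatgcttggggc
Car4: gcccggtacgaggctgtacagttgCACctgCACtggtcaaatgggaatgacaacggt
Car12: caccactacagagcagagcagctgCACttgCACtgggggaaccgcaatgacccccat
In all 8 genes shown, both triplets were CAC or CAT, the codons of histidine. The stretches lie at chr3:14776257-14776313 (minus strand) for Car1, chr3:14895045-14895101 (plus strand) for Car2 and chr3:14650682-14650738 (plus strand) for Car13. Over whole coding sequences the members were 52.4% to 65.8% identical in pairwise alignment, with Car1 and Car13 the closest pair at 65.8% and Car1 and Car2 at 63.8%. No run of 31 bases was shared between the transcripts of any 2 members, and none of their exons overlapped an exon of another gene in GENCODE. Car1 shared 21.4% of its runs of that length with the pseudogene Gm5843, and Car5b shared 11.2% with repeats found in many genes, so the absolute level of these 2 genes is less certain.

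Each library held between 35294930 and 53899476 counts on transcripts, and 3 counts corresponded to 0.0604 to 0.0831 CPM (counts per 1000000 counted, relative to TMM-scaled library sizes). The erythroid markers Alas2, Epb42, Ank1, Hba-a1, Hbb-bs and Tfrc rose between day 0 and day 4. Gata1 was called higher (log2 fold change 0.37), a call lost without day 4 replicate 2 (0.36), and Klf1 lower (-0.54), a call lost without day 0 replicate 2 (-0.17), day 4 replicate 1 (-0.55) or day 4 replicate 2 (-0.54). The summed level of all 8 went from 1075 to 1164 CPM at day 0 to 17692 to 19794 CPM at day 4. Markers of other blood lineages differed between days as well. The mast cell and basophil markers, with 3 of 4 detected, had a summed level of 6.15 to 6.81 CPM at day 0, which was 0.224 to 0.263 CPM by day 2 and 0.0221 to 0.0277 CPM by day 4. The 5 megakaryocyte markers summed to 271 to 277, 215 to 237 and 545 to 620 CPM, of which Itga2b rose and Pf4 fell by day 4. Gp9 was called higher and Gp1bb lower at day 4 than at day 0, and each lost its call without any one of 4 of the 6 libraries (log2 fold changes of 0.42 to 0.66 and of -0.73 to -0.28 in those fits). Ppbp and the 3 mast cell markers passed the filter on low counts through day 0 alone, so no test of them is given. The neutrophil and macrophage markers, with 5 of 11 not detected, summed to 17.7 to 20.2 CPM at day 0 and 12.0 to 13.2 CPM at day 4, and the lymphocyte markers stayed at or below 0.221 CPM. The part of these other markers in the changes of the carbonic anhydrases was not tested.

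Car8 passed the filter on low counts through its day 0 libraries alone, so it had to differ between days, and it is left out of the counts and medians of this paragraph. Car12 passed it through days 0 and 2 alone, and Car7 through days 0 and 4 alone. The changes of Car12 to day 4 and of Car7 from or to day 2 are therefore a description and not counted as calls. Of the other 6 tested members, Car2 was called higher and Car1 and Car12 lower at day 2 against day 0 (edgeR, adjusted p below 0.05). Of all 18351 tested transcripts, 31.9% were called higher and 31.6% lower. Between day 2 and day 4 none was called higher and 2 were called lower (Car1 and Car13), beside 14.6% and 16.4% of all transcripts. Over the whole course, Car2 was called higher and Car1 and Car13 lower, beside 36.2% and 36.1% of all transcripts. The median log2 fold change of these 6 members, with Car7 and Car12 included, was -0.58, -0.56 and -0.80 in these comparisons. That of all tested genes was 0.01, 0.00 and -0.02. The plots of CPM by day and of log2 fold change set these changes side by side. With total counts in place of TMM factors, the median of all transcripts moved to 0.22, -0.09 and 0.11, and 64.5%, 33.2% and 55.8% of the called transcripts were higher, where TMM factors gave 50.2%, 47.2% and 50.1%. Under that scaling the members counted as called at each step kept their direction and their call.

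**Figure D1:**
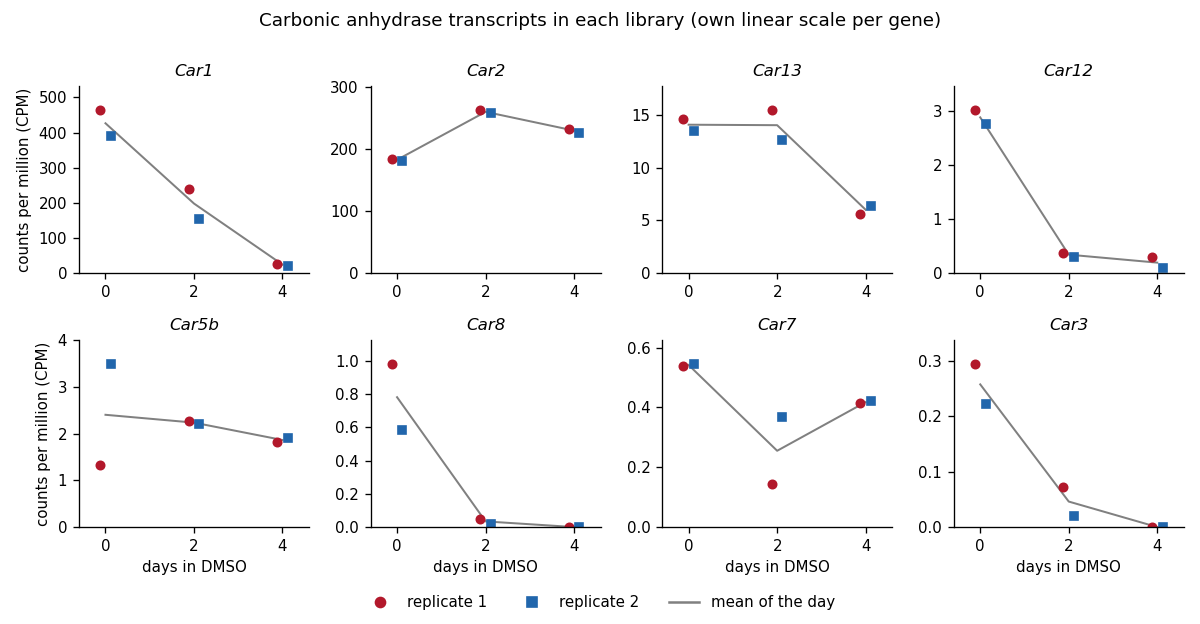
Level of each detected carbonic anhydrase (CPM, linear axis from 0, own scale per gene) against days in DMSO, with 1 point per culture and a line through the mean of each day. Car1 declined from 463 and 390 CPM to 27.3 and 21.7 CPM, Car2 was highest at day 2, and Car5b differed most between its day 0 cultures.

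**Figure D2:**
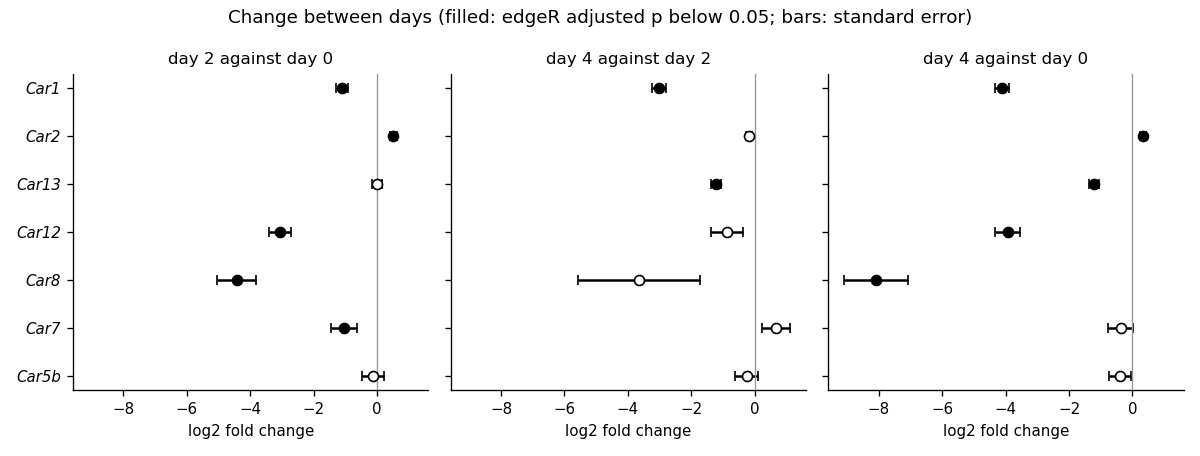
Log2 fold change of the 7 tested members between days, with bars for the standard error and filled points where the edgeR adjusted p was below 0.05. Car8 passed the filter through day 0 alone, so its points are a description, and their size for day 4 depends on how its 0 counts are treated. The points of Car12 that involve day 4 and of Car7 that involve day 2 are also a description, since they did not pass the filter through those days.

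Car1, the lower-activity cytosolic enzyme that is abundant in mature red cells (NM_009799, chromosome 3 from 14766214 to 14808365 of GRCm38, minus strand), was the member with the largest loss of counts. It had 463 and 390 CPM in the day 0 cultures, 241 and 156 CPM at day 2, and 27.3 and 21.7 CPM at day 4. The cultures of each day lay wholly below those of the day before. Between day 0 and day 2 Car1 fell by 1.11 on the log2 scale (SE, the standard error, 0.19; edgeR adjusted p = 0.000493). It fell by a further 3.02 between day 2 and day 4 (SE 0.21; edgeR adjusted p = 5.25e-05). This second change was lower than that of all but 55 of the 18351 tested transcripts. From day 0 to day 4 Car1 had a log2 fold change of -4.12 (SE 0.22; edgeR adjusted p = 6.77e-08), a 17.4-fold lower level. The second step was the larger one, with a difference between the steps of -1.91 (edgeR adjusted p = 0.00195; 30.0% of all transcripts were called for such a difference). Leaving out day 2 replicate 1, the higher of the day 2 cultures, brought this difference to -1.22 and ended its call (edgeR adjusted p = 0.0671).

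A second Car1 transcript, NM_001083957, starts at another first exon and shares the rest of the gene. It had nearly the same counts as NM_009799 in every library, with 18837 against 18878 in day 0 replicate 1 and 980 against 981 in day 4 replicate 2. The difference was 1 to 42 counts, at most 0.406% of the gene's count. The 2 transcripts are therefore not separate measurements, and the counts hold almost no information on which first exon was used.

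Car2, the high-activity cytosolic enzyme (NM_009801, chromosome 3 from 14886269 to 14900770), rose early and stayed high. Its level was 184 and 182 CPM at day 0, 263 and 258 CPM at day 2, and 234 and 227 CPM at day 4. Replicate cultures lay close together, and no day overlapped another. Car2 rose 1.42-fold between day 0 and day 2, a log2 fold change of 0.51 (SE 0.10; edgeR adjusted p = 0.00149). The day 4 cultures were both lower than the day 2 cultures, with a log2 fold change of -0.18 that was not called (SE 0.10; edgeR adjusted p = 0.217). From day 0 to day 4 Car2 had a log2 fold change of 0.33 (SE 0.10; edgeR adjusted p = 0.0143). This call was lost without day 4 replicate 1 (0.31, edgeR adjusted p = 0.0827) or day 4 replicate 2 (0.35, edgeR adjusted p = 0.0595). The difference between the steps was -0.69 (edgeR adjusted p = 0.0158), and this call was lost without day 2 replicate 1 (-0.67, edgeR adjusted p = 0.171), day 2 replicate 2 (-0.72, edgeR adjusted p = 0.132) or day 4 replicate 2 (-0.67, edgeR adjusted p = 0.0556).

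Levels of different genes were compared per transcript length, as TPM (counts per base of transcript, scaled to sum to 1000000 in every library) over 1 transcript per gene. Car1 had 1289 and 1050 TPM at day 0, 786 and 503 TPM at day 2, and 79.3 and 61.1 TPM at day 4. Car2 had 343 and 327 TPM, 572 and 558 TPM, and 453 and 428 TPM on the same days. Car1 was thus the more abundant at day 0, the cultures overlapped at day 2, and Car2 was the more abundant at day 4. The ratio of Car1 to Car2 TPM was 3.76 and 3.21 in the day 0 cultures, 1.37 and 0.901 at day 2, and 0.175 and 0.143 at day 4. At day 2 the 2 cultures thus fell on opposite sides of equality. No transcript-wide test was fitted to this ratio, and an exact permutation test of 2 cultures against 2 cannot give a p below 0.333.

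Car1 and Car2 together made up 97.6% to 98.3% of the summed TPM of the 9 members in every library. On average Car1 held 76.2% of it at day 0, 51.5% by day 2 and 13.4% by day 4, and Car2 held 22.0%, 46.3% and 84.3%. The members summed to 1531 ± 181 TPM (SD, n = 2 cultures) at day 0, to 1236 ± 214 TPM by day 2 and to 522 ± 30.1 TPM by day 4. TPM hold no TMM factors, so their changes between days differ in size from those in CPM. Mean Car2 went from 335 to 565 TPM between day 0 and day 2, and from 183 to 261 CPM. Ranked among all genes by TPM, Car1 stood at places 61 and 89 in the day 0 cultures and at 2459 and 3265 in the day 4 cultures. Car2 moved the other way, from places 496 and 521 to places 188 and 205. In bulk samples, fewer cells with a transcript and less of it per cell cannot be told apart.

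**Figure D3:**
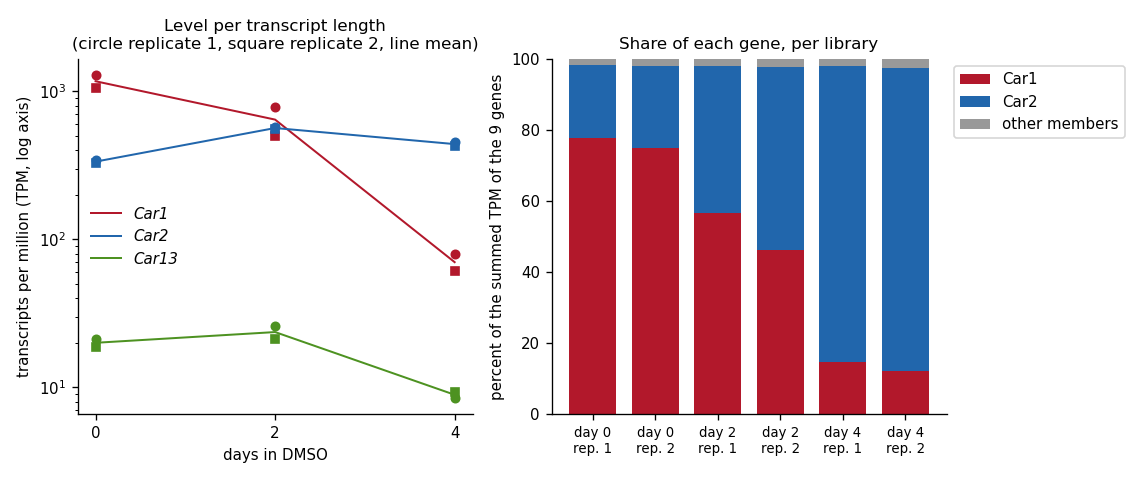
Left, TPM of Car1, Car2 and Car13 (log axis) against days in DMSO, with a circle for replicate 1, a square for replicate 2 and a line through the means. Right, share of Car1, Car2 and the other members in the summed TPM of the 9 genes in each library, with Car1 at 76.2% on average at day 0 and Car2 at 84.3% at day 4.

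Car13, the third cytosolic enzyme in abundance (NM_024495, chromosome 3 from 14641727 to 14663002), kept its level to day 2 and then declined. It had 14.6 and 13.5 CPM at day 0, 15.4 and 12.6 CPM at day 2, and 5.62 and 6.41 CPM at day 4. The cultures of days 0 and 2 overlapped, and both day 4 cultures lay below all of them. The log2 fold change was -0.01 between day 0 and day 2 (SE 0.15; edgeR adjusted p = 0.977), and 0.19 with total counts in place of TMM factors (edgeR adjusted p = 0.267). Between day 2 and day 4 Car13 fell by 1.22 (SE 0.15; edgeR adjusted p = 0.000414). The steps differed by -1.21 (edgeR adjusted p = 0.00559), and by -0.92 without day 2 replicate 1, which ended the call (edgeR adjusted p = 0.133). Per length, Car13 ranked after Car1 and Car2 on every day, at 20.0 ± 1.60, 23.7 ± 3.48 and 8.93 ± 0.641 TPM (SD, n = 2 cultures).

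Car13, Car1, Car3 and Car2 lie in this order within 259 kb of chromosome 3, with gaps of 103, 55.2 and 13.9 kb, and Car1 alone is on the minus strand. Neighbours in this cluster changed differently. Between day 0 and day 2, Car1 fell, Car2 rose and Car13 had a log2 fold change near 0. Between day 2 and day 4, Car1 and Car13 fell, and the change of Car2 was not called. Car3, a low-activity cytosolic enzyme best known from muscle and fat, lies next to Car2 (NM_007606, chromosome 3 from 14863538 to 14872381), and had 12 and 11 counts at day 0, 3 and 1 at day 2 and 0 in both day 4 cultures. It did not pass the filter on low counts. Set against library size, its summed count was 5.78-fold lower at day 2 (95% exact binomial interval 1.97 to 23.0) and at least 6.90-fold lower at day 4, taking 3 counts over both day 4 cultures as the limit. These intervals and limits cover counting error only.

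**Figure D4:**
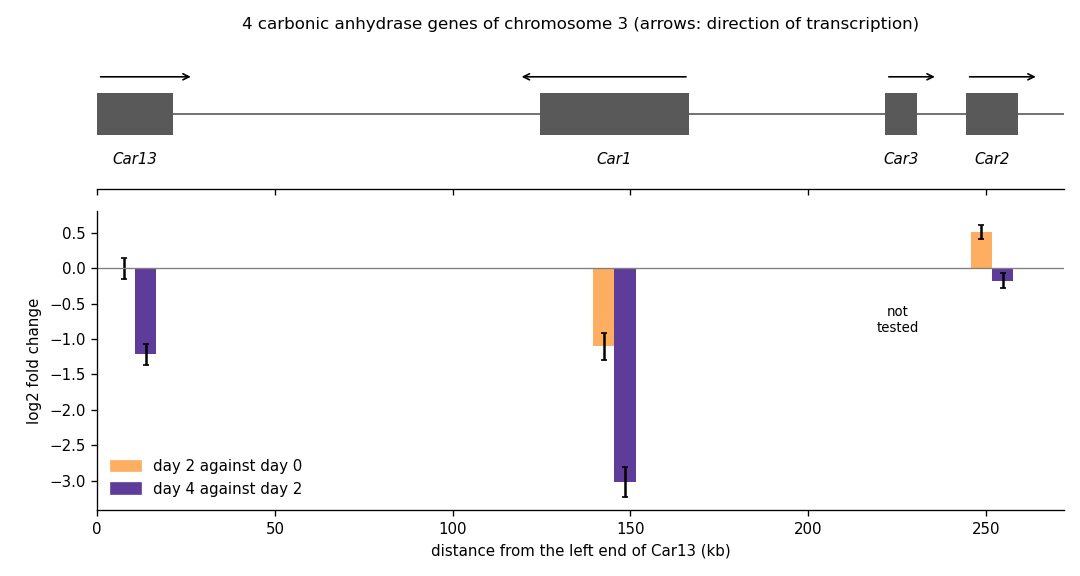
Map of the 4 chromosome 3 members, to scale in kb from the left end of Car13, above the log2 fold change of each tested gene between days (bars with standard errors). Car1 and Car13 fell between day 2 and day 4, whereas Car2 rose between day 0 and day 2 and Car3 was not tested.

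Car12 spans the plasma membrane with its catalytic domain outside (NM_178396, chromosome 9 from 66712296 to 66766845), and most of its counts were lost by day 2. The counts were 123 and 137 at day 0, 16 and 15 at day 2, and 11 and 4 at day 4, or 3.02 and 2.76, 0.383 and 0.305, and 0.305 and 0.0884 CPM. The day 0 cultures lay far above all others, and the later days were at few counts. Car12 fell by 3.07 on the log2 scale between day 0 and day 2 (SE 0.34, edgeR adjusted p = 2.05e-05). It passed the filter on low counts through days 0 and 2 alone, so its changes to day 4 are a description with no test. The log2 fold change between day 2 and day 4 was -0.87 (SE 0.51), and -1.92 without day 4 replicate 1. For day 4 against day 0 it was -3.93 (SE 0.38). The difference between the steps was 2.20, and it ran from 1.14 to 2.90 when each library was left out. Car4, the other member with its catalytic domain outside the cell (NM_007607, chromosome 11), had 0 counts in all 6 libraries, which allows at most 0.0604 to 0.0831 CPM per library at this depth.

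Car8, the relative without catalytic activity (NM_007592, chromosome 4 from 8141493 to 8239041), had 40 and 29 counts at day 0, 2 and 1 at day 2, and 0 in both day 4 cultures. Every count but 3 thus came from uninduced cells. Since it passed the filter through day 0 alone, its counts are given as a description with no test. Against library size, its summed count was 23.1-fold lower at day 2 (95% interval 7.59 to 115) and at least 20.7-fold lower at day 4, taking 3 counts over both day 4 cultures as the limit. The interval and limit cover counting error only. They leave out the differences between cultures and the part of the filter, so they are no test. At day 2 its level was already at the limit of detection.

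The inositol trisphosphate receptors are calcium channels of the endoplasmic reticulum, and all 3 genes were tested. Itpr1, the receptor known as a partner of Car8, had 83.1 and 75.1 CPM at day 0, 60.2 and 53.3 CPM at day 2, and 39.8 and 41.5 CPM at day 4. Itpr1 fell by 0.96 on the log2 scale over the whole course (edgeR adjusted p = 1.51e-05), and Itpr2 rose by 1.89 (edgeR adjusted p = 1.97e-07). Itpr3 rose by 0.37 (edgeR adjusted p = 0.0190), a call that was lost without day 4 replicate 2 (0.17, edgeR adjusted p = 0.297).

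Car7, a cytosolic enzyme known from the brain (NM_053070, chromosome 8 from 104534694 to 104550347), was at the edge of what this depth can test. It had 22 and 27 counts at day 0, 6 and 18 at day 2, and 15 and 19 at day 4, or 0.539 and 0.544, 0.144 and 0.366, and 0.416 and 0.420 CPM. Day 2 lay below both other days, and its cultures differed more than those of the other days. Car7 passed the filter on low counts through days 0 and 4 alone, so its changes from or to day 2 are a description with no test. The log2 fold change between day 0 and day 2 was -1.04 (SE 0.42), and -1.10 with DESeq2. Without day 2 replicate 1 the value was -0.56, and without day 2 replicate 2 it was -1.89. The change from day 2 to day 4 was 0.67, which became 0.19 without day 2 replicate 1 and 1.52 without day 2 replicate 2. From day 0 to day 4 the change was -0.37 (edgeR adjusted p = 0.407).

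Car5b, the mitochondrial enzyme (NM_181315, chromosome X from 163976822 to 164028010), had 54 and 173 counts at day 0, 95 and 108 at day 2, and 66 and 86 at day 4. The day 0 cultures, at 1.32 and 3.49 CPM, enclosed the cultures of both later days. No change of Car5b was called, with log2 fold changes of -0.13 at day 2 against day 0 (SE 0.34; edgeR adjusted p = 0.766), -0.26 at day 4 against day 2 (edgeR adjusted p = 0.614) and -0.39 at day 4 against day 0 (edgeR adjusted p = 0.344). The first of these values rested on which day 0 culture was used: it was 0.75 without day 0 replicate 2 (edgeR adjusted p = 0.0275) and -0.64 without day 0 replicate 1 (edgeR adjusted p = 0.0201). Without day 0 replicate 1 the value for day 4 against day 0 was called too (-0.91, edgeR adjusted p = 0.00234). Per length, Car5b and Car12 overlapped at day 0, at 2.27 ± 1.40 and 2.54 ± 0.220 TPM (SD, n = 2 cultures), and from day 2 Car5b was the fourth member after Car1, Car2 and Car13.

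Of the 7 carbonic anhydrase genes outside the members, 3 were tested. Car15, an enzyme anchored on the outer cell surface, had 1.05 and 1.17 CPM at day 0, 7.31 and 7.65 CPM at day 2, and 11.7 and 13.7 CPM at day 4. It rose in both steps, by 2.74 (edgeR adjusted p = 6.21e-07) and 0.77 (edgeR adjusted p = 0.00357) on the log2 scale, the second call being lost without day 2 replicate 1 (0.73, edgeR adjusted p = 0.0649). Car9, the membrane enzyme known from tumours low in oxygen, fell by 1.25 by day 4 (edgeR adjusted p = 0.0128), a call lost without day 0 replicate 2 (-0.93) or day 4 replicate 1 (-0.89). Car11, a relative without catalytic activity, had a log2 fold change of 0.25 (edgeR adjusted p = 0.371), and 0.62 without day 0 replicate 2 (edgeR adjusted p = 0.0424).

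Genes that move bicarbonate, carbon dioxide and water across membranes were given by a list of 17, of which 11 were tested. Apart from Slc4a1, described next, Aqp1, Rhd and Slc4a7 rose and 2 genes fell between day 0 and day 4. This stands beside 36.2% and 36.1% of all tested transcripts. The median log2 fold change of 0.25 includes Slc4a1. Slc4a1, the band 3 anion exchanger that carries bicarbonate out of the red cell, had 0.221 and 0.242 CPM at day 0, 4.86 and 6.17 CPM at day 2, and 47.4 and 33.4 CPM at day 4. Slc4a1 passed the filter on low counts through days 2 and 4 alone, so its change from day 0 is a description with no test. It rose in both steps, in contrast to Car1. The log2 fold changes were 4.56 between day 0 and day 2 and 2.87 between day 2 and day 4 (edgeR adjusted p = 5.25e-05 for the second). The water channel Aqp1 rose by 2.84 over the whole course (edgeR adjusted p = 2.06e-07) and the Rh protein Rhd by 3.44 (edgeR adjusted p = 1.89e-08). Both had already risen by day 2, by 2.72 for Aqp1 (edgeR adjusted p = 6.57e-07) and by 3.45 for Rhd (edgeR adjusted p = 8.41e-08). Slc4a7, a sodium bicarbonate cotransporter, rose by 0.46 (edgeR adjusted p = 0.0105), a call lost without day 4 replicate 2 (0.35, edgeR adjusted p = 0.0992). The solute channel Aqp9 fell (-2.23, edgeR adjusted p = 4.93e-07), as did the anion exchanger Slc26a6 (-1.29, edgeR adjusted p = 2.72e-05). The exchanger Slc4a2 and the Rh-associated protein Rhag were not called, at 0.16 (edgeR adjusted p = 0.202) and 0.13 (edgeR adjusted p = 0.374). Slc4a2 was called without day 0 replicate 2 (0.26, edgeR adjusted p = 0.0351) and with total counts (0.28, edgeR adjusted p = 0.0403), and Rhag without day 0 replicate 1 (0.30, edgeR adjusted p = 0.0292).

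The proton made beside bicarbonate is exported by exchangers and with lactate, and of 12 listed genes for this 9 were tested. The proton channel Hvcn1, among the 9, passed the filter on low counts through day 0 alone, so its call is not counted. Its counts are given with no test: 46 and 72 at day 0, 10 and 8 at day 2, and 7 and 0 at day 4. Apart from Hvcn1, 4 genes were called higher by day 4, beside 36.2% of all tested transcripts. Slc9a5, Slc16a1 and Slc16a3 were called lower, beside 36.1%. The median log2 fold change of the list, 0.07, includes Hvcn1. The sodium-proton exchanger Slc9a7 rose by 1.83 (edgeR adjusted p = 1.5e-05). The lactate transporters Slc16a1 and Slc16a3 fell, with log2 fold changes of -1.01 (edgeR adjusted p = 6.95e-06) and -2.71 (edgeR adjusted p = 1.53e-08). The exchangers Slc9a8 and Slc9a9 and the lactate transporters' partner Bsg were also called higher, and Slc9a5 lower. Slc9a9 lost its call without day 0 replicate 2 (0.53, edgeR adjusted p = 0.0970) or day 4 replicate 2 (0.51, edgeR adjusted p = 0.160). Bsg, at 0.37 (edgeR adjusted p = 0.0334), lost its call in the fit of only the 2 days (0.37, edgeR adjusted p = 0.0628) and without any one of 5 of the 6 libraries (0.19 to 0.44), day 0 replicate 1 being the exception.

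Enzymes that use bicarbonate as a substrate or, for Adcy10, respond to it were given by a list of 10, of which 8 were tested. At day 4 against day 0, 5 were called lower and 1 higher, beside 36.1% and 36.2% of all tested transcripts, with a median of -0.57. Cad, which begins pyrimidine synthesis, had 749 and 690 CPM at day 0, 267 and 270 CPM at day 2, and 183 and 167 CPM at day 4. It fell by 2.04 on the log2 scale (edgeR adjusted p = 1.33e-07). Acaca and Acacb, which make malonyl-CoA, fell as well, with log2 fold changes of -0.78 (edgeR adjusted p = 8.41e-05) and -0.63 (edgeR adjusted p = 0.00162), and Mccc1 and Mccc2, the subunits of a carboxylase of leucine breakdown, likewise, at -0.80 (edgeR adjusted p = 0.000178) and -0.51 (edgeR adjusted p = 0.00268). Pyruvate carboxylase, Pcx, rose by 0.45 (edgeR adjusted p = 0.0234), a call lost without day 4 replicate 2 (0.22, edgeR adjusted p = 0.294). Without day 0 replicate 1, Pcca was called higher too (0.46, edgeR adjusted p = 0.00284). The plot of listed genes gives every tested gene of these lists.

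**Figure D5:**
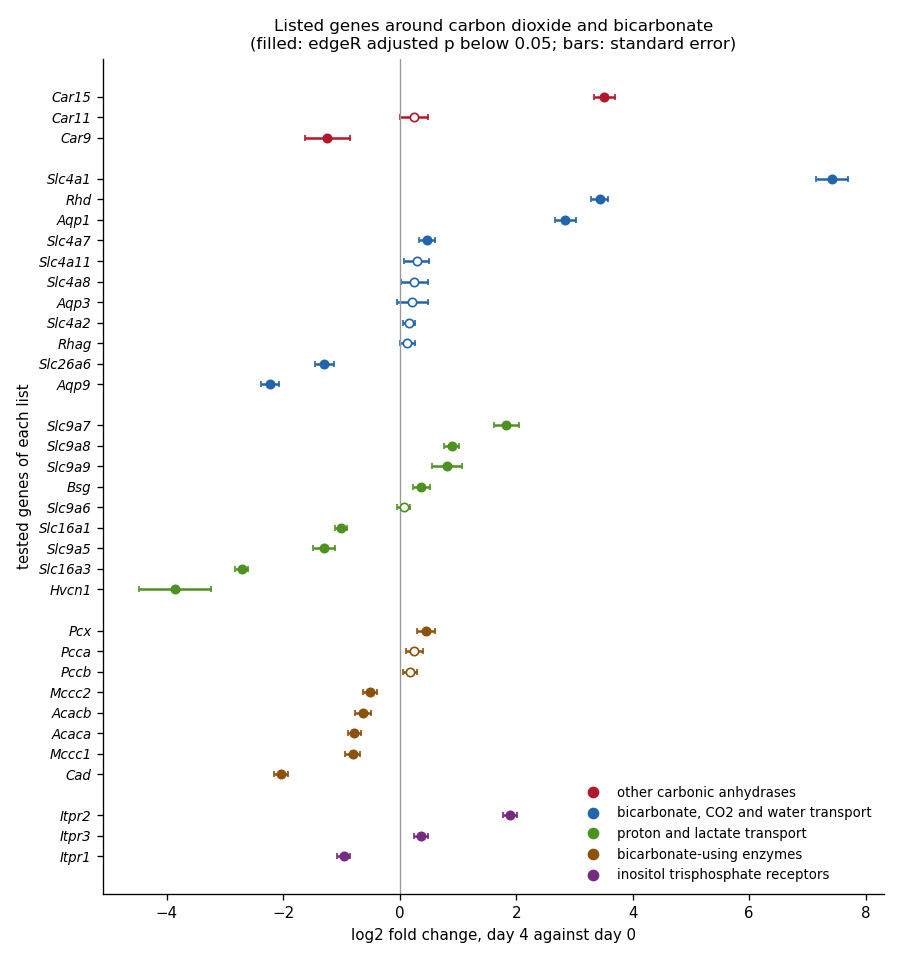
Log2 fold change of the tested genes of 5 lists for day 4 against day 0, with bars for the standard error and filled points where the edgeR adjusted p was below 0.05. Slc4a1 had the highest value, at 7.42. The Slc4a1 and Hvcn1 points are a description, since Slc4a1 passed the filter through days 2 and 4 alone and Hvcn1 through day 0 alone.

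Among 10450 other genes whose log2 CPM averaged 1 or more, those with the profile most like each member over the 6 libraries were found by the root mean square difference of centred log2 CPM, as a description. Car2 was followed most closely by Mis12 (0.028), Tmem170 (0.029) and Zfp59 (0.037), and Car13 by Ttk (0.083), Ncapg2 (0.100) and Fbxo5 (0.101). Car1 had no such close match, its nearest genes being Ifit2 (0.41), Slc7a11 (0.45) and H3c11 (0.50). The difference is not scaled to the size of a gene's change, so distances of members with large and small changes are not comparable. Car1 fell further than each of these, whose log2 fold changes for day 4 against day 0 were -3.38 for Ifit2, -3.44 for Slc7a11 and -3.54 for H3c11. These log2 CPM hold a small offset added to the counts, which sets the day 4 values of Car8, at 0 counts. The distances of Car8 thus depend on that offset and are not comparable with those of Car1. The offset also weighs on the few counts of Car12 at day 4 and of Car7 at day 2. The nearest genes were Lcp2 (0.22), Tenm4 (0.28) and Acap1 (0.29) for Car8, and Klhl6 (0.25), Gdf15 (0.26) and Eps8 (0.28) for Car12. They were Rab26os (0.23), Ecm1 (0.25) and Nfkbiz (0.26) for Car7, and Cir1 (0.14), Guca1a (0.14) and Rnf168 (0.15) for Car5b.

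Promoter windows of 250 bases before to 50 bases after a start were at hand for Car4, Car5b, Car7 and Car12. On either strand, AGATAA, the letters bound by GATA factors, stood in 1 of 3 Car7 windows and in 11.2% of all 32851 windows. CACCC, bound by Kruppel-like factors, stood in all 3 Car7 windows, in the Car4 window and in 57.5% of all windows, and CAGCTG, an E-box, stood in 1 Car7 window and in 16.3% of all. TGATAA and CAGATG stood in none of these windows, and in 9.05% and 17.2% of all. The windows of Car5b and Car12 held none of the 5 motifs.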

How the data were processed

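The authors made strand-specific, poly(A)-selected mRNA-seq libraries of MEL cells, used cutadapt for adapter trimming and TopHat for alignment to the mm10 genome, and deposited raw counts per RefSeq transcript, unnormalized and per culture. The submitters' processing notes also name HTSeq and DESeq2. The release of the annotation and the use of strand in counting are not given in the sources used here. Reads on no feature (50.5% to 58.4% of a library) were left out. Day and replicate came from the labels. Of 32654 transcripts, 32199 took their symbol from a GRCm38 table of RefSeq and 187 from GENCODE, and 268 had none.

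All 6 libraries entered 1 fit in edgeR 4.0.16 (R 4.3.3) with TMM factors (0.921 to 1.07), the filterByExpr filter by day, a mean per day, the quasi-likelihood test and Benjamini-Hochberg adjustment over all 18351 transcripts kept; a call is an adjusted p below 0.05. Standard errors are the log2 fold change divided by the square root of F. The difference between steps is the change from day 2 to day 4 minus that from day 0 to day 2, which share the day 2 libraries. TPM used GENCODE lengths, over 23498 of 24164 genes (91.4% of counts). For a group at 0, a fold is given against 3 counts over the group. The fit was tested on simulated counts. The members and gene lists were chosen with earlier results of these data known. Every member is named, other genes come only from the lists, and the 3 nearest profiles are named per tested member. Some genes and sequences are not reported here. Protein sequences were not used here, so coding sequences were aligned. The alternatives were DESeq2 1.42.0, relative log expression factors, total counts, no globin transcripts, no filter, a replicate block, 1 transcript per gene, only the 2 days compared, a log2 fold change of at least 1, and each library left out. Applying them to listed genes, and leaving Car8 out of the counts and medians of members, was chosen after seeing the data. So was not counting the changes of Car7 from or to day 2 and of Car12 to day 4 as calls.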

Additional observations from a re-analysis of the deposited data

How the results depend on the processing

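The 28 changes and step differences of members were recomputed 384 times, and 358 kept their side of the threshold and, where called, their direction. The counts of members called stayed within 1.5 times of the main counts of 5, 2 and 5 in all 45 cases. All these values include Car8, which passed the filter through day 0 alone, and the calls of Car7 and Car12 that are not counted above. They do not show how stable the counts given above were. For Car7 at day 2 against day 0, a description, the value was -1.10 with DESeq2, -0.84 with total counts and -1.03 with 1 transcript per gene. It was -1.05 in the fit of only the 2 days and -1.06 with the replicate block, and the values without each library ran from -1.89 to -0.56. This change of Car7 aside, the replicate block changed no call of a member. Over all tested transcripts, the differences between replicates 1 and 2 correlated by only 0.032, 0.045 and 0.079 across pairs of days. The labels give only a replicate number, and such low correlations cannot show whether same-numbered cultures were paired.

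For Car5b at day 2 against day 0, leaving out each library gave -0.64 to 0.75, with the sign turned without day 0 replicate 2 (0.75), and at day 4 against day 0 it gave -0.91 to 0.48. For Car12 at day 4 against day 2 the range was -1.92 to -0.17, and for Car2 at day 4 against day 0 it was 0.31 to 0.35. For the differences between steps the ranges were -2.48 to -1.22 for Car1, -0.72 to -0.67 for Car2, -1.49 to -0.92 for Car13 and 1.14 to 2.90 for Car12. The Car12 difference, a description, was 2.24 with relative log expression factors and 2.19 without the filter. The cause was not tested in any of these cases. In fits without a library, the lone culture of its day is assumed to vary like the others. Car8 at day 4 against day 2 had no value in the fit of only those days, since it was filtered out.

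For day 4 against day 0, the bicarbonate-using enzymes called higher went from 1 to 3 with total counts and to 0 without day 4 replicate 2 or 2 without day 0 replicate 1, and the other carbonic anhydrases called lower went from 1 to 2 without the filter. With 2 cultures per day the spread is poorly known, and Car3, Car4, Car7 and Car8 were at or near the limit of detection on some or all days.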
